A study of Mus musculus with 19 samples.

Results

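The IL-1 family cytokines are secreted or released proteins that act through receptors of the IL-1 receptor family, and this account follows the 10 family genes Il1a, Il1b, Il1rn, Il36a, Il36b, Il36g, Il36rn, Il1f10, Il18 and Il33. They were chosen by name from a table of 24689 gene symbols, and all 10 were measured and passed the filter on low values. The samples were 19 tongue epithelia, each from 1 mouse, measured by bulk RNA sequencing of poly(A) RNA 15 days after induction began. The study asked what the human papillomavirus oncogenes E6-E7 and an active YAP1 do to oral epithelial progenitor cells, apart and together. Levels are in TPM, a unit that corrects for depth and for a length set for each gene. The sources used here do not say which length that was, so levels of different genes are compared with that limit.

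Each mouse was a littermate aged 8 to 16 weeks from groups balanced for age and sex, was given tamoxifen by injection into the tongue and ate doxycycline chow. Tamoxifen activates CreERT, driven by the Krt14 promoter of basal keratinocytes, which removes a stop cassette (LSL) in front of the doxycycline-dependent activator rtTA. According to the study's methods the mice also carried a tetON_H2B-GFP reporter. The transgenes are therefore switched on in Krt14-expressing cells, while the RNA came from the whole epithelium. Group E (5 mice) carried Krt14-CreERT, LSL-rtTA and tetON_E6-E7, group Y (3 mice) carried tetON_YAP1S127A in place of tetON_E6-E7, and group EY (6 mice) carried both effectors. Group N (5 mice) was the control and was mixed by label. N mice 1, 2 and 3 carried Krt14-CreERT and LSL-rtTA, N mouse 4 had LSL-rtTA without Cre, and N mouse 5 had Krt14-CreERT with both effectors but no rtTA. Whole reads could be recovered from the TPM values, and the mice had between 8269674 and 11007304 reads, with a median of 9637779 for N, 8848776 for E, 8679053 for Y and 9448942 for EY.

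IL-1α and IL-1β signal through the receptor Il1r1, IL-36α, β and γ through Il1rl2, IL-33 through Il1rl1 and IL-18 through Il18r1, all with a MyD88-dependent route to NF-κB. Il1rn and Il36rn encode antagonists that occupy a receptor without signalling. Keratinocytes store several of these cytokines and release them on damage, and the IL-36 cytokines are made mainly by epithelia.

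The tissue label was checked against marker genes. Krt13, a keratin of the upper layers of tongue epithelium, was the most abundant of 8 suprabasal markers and Krt14 the most abundant of 7 basal markers, and both sets were high in every mouse. The suprabasal markers summed to 151340, 83810, 123620, 128360 and 126040 TPM in N mice 1 to 5, 108310, 130890, 135110, 77459 and 115240 in E mice, 103700, 55432 and 83116 in Y mice, and 40422 at the lowest, 44212 at the median and 53695 at the highest in EY. Every EY mouse was below every other mouse. The basal markers summed to 11089 ± 2297 TPM (SD, n = 5) for N and 12646 ± 2792 (n = 5) for E, and to 22583 ± 7404 (n = 3) for Y and 23627 ± 6059 (n = 6) for EY. The basal sums were mostly Krt14 and Krt5, and over the 7 basal markers the median log2 fold change was 0.03 in EY against N and -0.10 in Y against N. Over the 8 suprabasal markers it was -1.68 in EY and -0.76 in Y, so that suprabasal marker RNA was lower in EY beside every EY result that follows. In bulk tissue, fewer cells of a type and less RNA per cell cannot be told apart.

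The members Il36b to Il1rn, 6 in all, lie next to each other on mouse chromosome 2, in the order Il36b, Il36g, Il36a, Il36rn, Il1f10 and Il1rn, with no other protein-coding gene between neighbours. Il1a and Il1b form a separate pair on the same chromosome. RefSeq promoter windows of the GRCm38.p6 build were available for 9 of the 10 members, none of them Il36a, in 13 windows of 300 bases in all. The windows of 3 members whose level was lower in EY and of 2 whose level was higher in Y or EY are shown so that their sequence can be read beside the values. Capitals mark the motif of TEAD factors, which carry YAP1 to DNA (GGAATG), or that of AP-1 (TGANTCA), on either strand. The Il36b window is on the + strand at chr2:24152922-24153221, the first of 2 of Il36rn at chr2:24276704-24277003 (+), that of Il18 at chr9:50554450-50554749 (+), the first of 2 of Il33 at chr19:29924863-29925162 (+) and the first of 3 of Il1rn at chr2:24336610-24336909 (+).
Il36b: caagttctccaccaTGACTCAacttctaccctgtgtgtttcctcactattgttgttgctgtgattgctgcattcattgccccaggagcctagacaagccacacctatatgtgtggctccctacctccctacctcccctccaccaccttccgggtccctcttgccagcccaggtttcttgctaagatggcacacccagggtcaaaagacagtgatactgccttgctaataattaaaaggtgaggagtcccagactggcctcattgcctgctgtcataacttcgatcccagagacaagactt
Il36rn: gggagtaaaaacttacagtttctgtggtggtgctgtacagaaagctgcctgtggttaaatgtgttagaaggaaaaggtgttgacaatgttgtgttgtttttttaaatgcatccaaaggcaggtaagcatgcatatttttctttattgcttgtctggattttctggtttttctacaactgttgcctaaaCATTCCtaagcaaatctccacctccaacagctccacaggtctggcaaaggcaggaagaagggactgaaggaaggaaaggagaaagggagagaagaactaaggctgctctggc
Il18: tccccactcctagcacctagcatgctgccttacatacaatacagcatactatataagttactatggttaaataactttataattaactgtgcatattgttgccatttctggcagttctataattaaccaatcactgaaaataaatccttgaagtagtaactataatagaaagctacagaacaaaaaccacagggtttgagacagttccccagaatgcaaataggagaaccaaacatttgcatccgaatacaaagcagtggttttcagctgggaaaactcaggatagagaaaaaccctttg
Il33: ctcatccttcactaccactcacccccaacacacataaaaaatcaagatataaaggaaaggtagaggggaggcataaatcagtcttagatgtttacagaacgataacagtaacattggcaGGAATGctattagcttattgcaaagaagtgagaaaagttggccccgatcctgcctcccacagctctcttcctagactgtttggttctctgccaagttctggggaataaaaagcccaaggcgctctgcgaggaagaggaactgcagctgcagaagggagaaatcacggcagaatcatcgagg
Il1rn: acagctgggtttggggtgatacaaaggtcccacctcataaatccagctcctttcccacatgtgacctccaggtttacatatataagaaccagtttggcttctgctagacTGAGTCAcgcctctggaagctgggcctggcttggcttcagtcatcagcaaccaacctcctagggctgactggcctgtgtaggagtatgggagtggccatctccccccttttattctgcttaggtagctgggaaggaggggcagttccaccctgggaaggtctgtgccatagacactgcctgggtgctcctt
The TEAD letters were in 5 of the 13 windows, belonging to Il1rn (in a window not shown), Il36rn (its first alone), Il1f10 and Il33 (both), and in 14.7% of all 32851 RefSeq promoter windows. The AP-1 letters were in 3 windows, of Il1a, Il1rn and Il36b, against 7.81% of all windows. The NF-kB motif was in none of the 13 and in 8.46% of all windows. These are letter matches only.

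In N, the members spanned a wide range of levels. Il36rn was highest (184 ± 38.9 TPM, SD, n = 5), followed by Il36g (113 ± 17.9), Il36a (86.6 ± 23.5), Il36b (49.3 ± 8.97) and Il1rn (30.2 ± 2.25). Il18 (22.0 ± 4.81), Il1a (19.02 ± 3.82), Il33 (15.4 ± 2.97), Il1f10 (14.3 ± 7.79) and Il1b (5.45 ± 5.09) came after them. Only Il36b and Il1rn, and Il1rn and Il18, were neighbours whose ranges did not overlap. In EY the order began with Il36g (69.5 ± 13.1, n = 6) and Il1rn (55.3 ± 11.1), and the sole neighbours whose ranges did not overlap were the lowest, Il18 and Il1f10. Both orders are of TPM and rest on the length used for each gene. Summed over the N mice, Il18 had 5281 reads and Il33 4816, more than Il1rn (3913) and Il36b (3221).

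**Figure D1:**
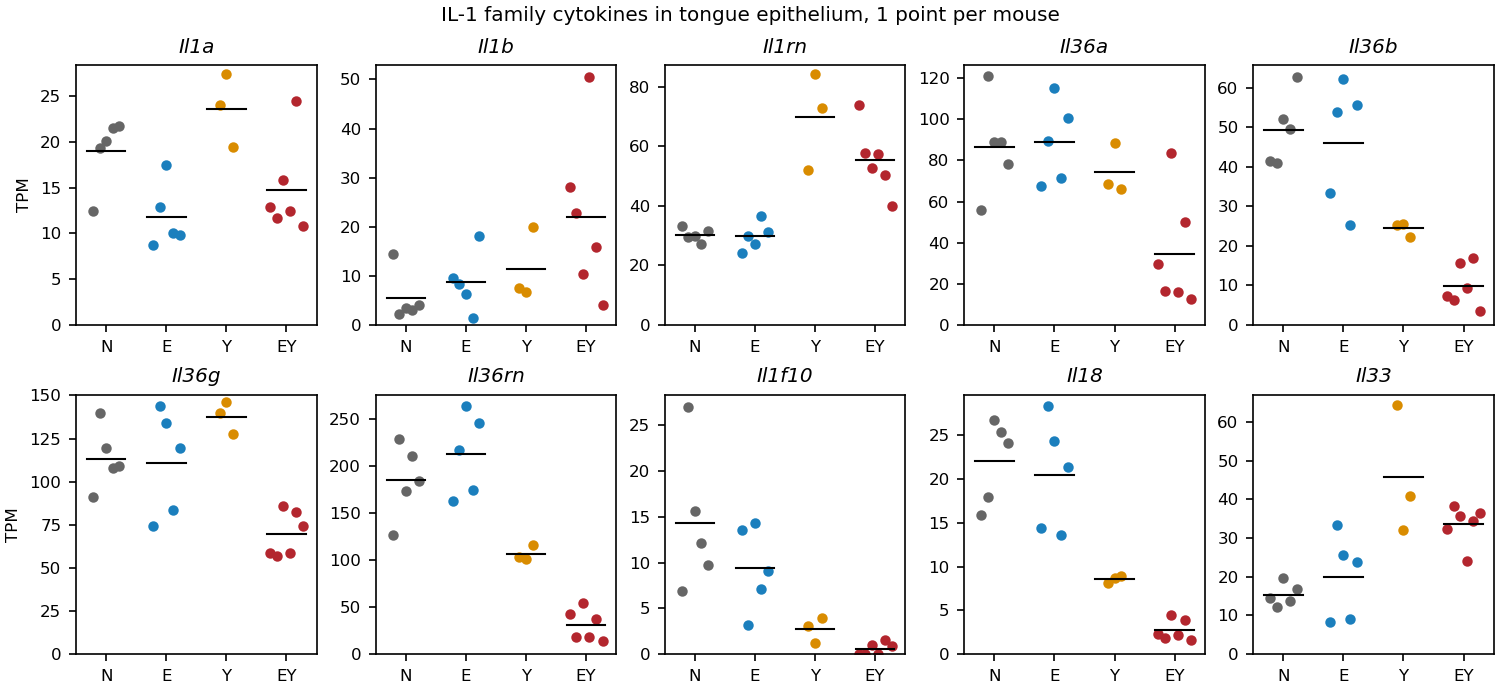
TPM of each member (vertical axes, each from 0) in the 4 groups, with 1 point per mouse and a line at the group mean. Il36b, Il36rn and Il18 lie lower in EY than in every N mouse, and Il1rn lies between 40.0 and 73.7 TPM in EY against 27.2 to 33.2 in N.

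Across the members, 5 fell and 1 rose in EY against N by limma, with a call needing an adjusted p below 0.01 and a log2 fold change beyond 1. Of all 22745 genes tested, 5.71% were called lower and 12.6% higher in this comparison. In Y against N 1 member fell and 1 rose (all genes, 1.11% and 3.47%). In E against N none was called by limma, where 1.2% of all genes were called, and 1 member had an unadjusted p below 0.05, as had 14.76% of all genes. EY against Y called 3 members lower and none higher (all genes, 0.928% and 1.07%), and EY against E called 5 lower and none higher (4.99% and 7.82%). For the interaction, the difference between the effect of both effectors and the sum of the single ones, no member was called (all genes, 0.176%) and 5 had an unadjusted p below 0.05 (all genes, 13.51%). Limma voom on the recovered reads called 1, Il36rn. The comparisons with N share the N mice. Groups did not overlap for 7 members in EY against N (27.4% of all genes) and for 6 in Y against N (21.1%).

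All changes are relative to the whole of each library. Over all genes tested, the median log2 fold change was 0.33 in EY against N, 0.13 in Y against N, 0.18 in EY against Y and 0.26 in EY against E. With the mice scaled by median-of-ratios these medians became 0.01, -0.03, 0.02 and 0.04. The share of all calls that were higher went from 68.8% to 43.9% in EY against N, from 75.8% to 57.2% in Y against N, from 53.5% to 30.3% in EY against Y and from 61.1% to 38.9% in EY against E. Under that scaling 6 members were called lower and 0 higher in EY against N by limma, and 1 lower and 0 higher in Y against N. Over all genes it gave 1972 lower and 1540 higher in EY against N, and 392 lower and 524 higher in Y against N. On the deposited scale the 10 members had a median of -1.17 in EY against N, 0.05 in Y against N, -0.05 in E against N, -1.22 in EY against Y and -1.16 in EY against E.

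**Figure D2:**
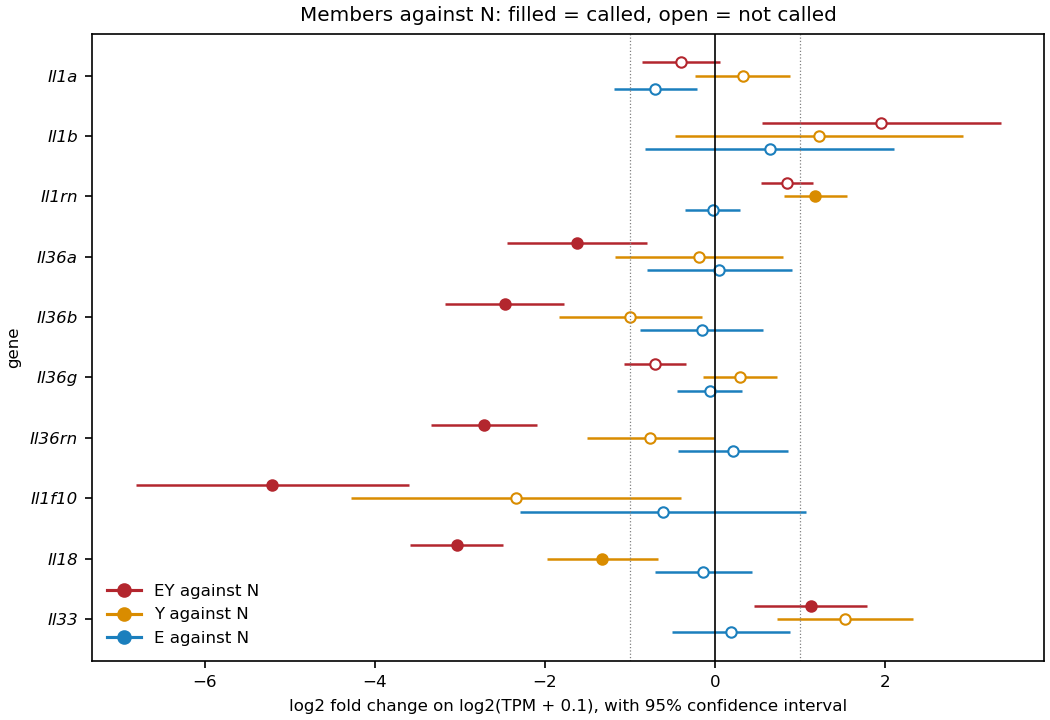
Log2 fold change of each member against N (horizontal axis, with 95% confidence interval), for EY, Y and E. Filled points passed both limits (dotted lines at a log2 fold change of 1 in each direction), and all E points are open.

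Il36a, Il36b and Il36g encode agonists of the IL-36 receptor. For Il36a, which encodes IL-36α, N mice 1 to 5 had 55.7, 121, 89.1, 89.2 and 78.0 TPM, E mice 67.4, 89.4, 115, 71.5 and 101, Y mice 68.7, 88.4 and 66.2, and EY mice 12.7 at the lowest, 23.0 at the median and 83.5 at the highest. EY mice 3 and 5 were high within their group, and EY mouse 3 lay inside the N range. Il36a fell in EY by 1.62 on the log2 scale (SE 0.389, limma adjusted p = 0.00255). The call was lost with only N mice 1 to 3 (adjusted p = 0.016) and in a fit of the 2 groups alone (adjusted p = 0.0162), and over all alternatives the adjusted p ran from 8.84e-05 to 0.0162. In EY against Y it was -1.44 (adjusted p = 0.0586), a call only without EY mouse 3 (-1.76, adjusted p = 0.00599).

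Il36b encodes IL-36β. N mice had 41.4, 40.9, 52.2, 49.5 and 62.7 TPM, E mice 33.3, 54.0, 62.2, 25.3 and 55.7, Y mice 25.4, 25.6 and 22.2, and EY mice 3.62, 8.39 and 16.8 at the lowest, median and highest. Every Y mouse was below every N mouse, and every EY mouse was below every Y mouse. Il36b fell by 2.48 in EY against N (SE 0.330, limma adjusted p = 9.75e-06). In Y against N its log2 fold change was -0.997 with an adjusted p of 0.101, which is not a call. In EY against Y it was -1.48 (adjusted p = 0.0234), a call with voom (adjusted p = 0.00664) or without EY mouse 5 (-1.67, adjusted p = 0.00976), within a range of 0.00664 to 0.0914 over all alternatives.

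Il36g encodes IL-36γ. N mice had 90.9, 140, 119, 108 and 109 TPM, E mice 74.1, 144, 134, 83.3 and 120, Y mice 140, 146 and 128, and EY mice 56.9, 66.4 and 85.9 at the lowest, median and highest. All EY mice were below all N mice and all Y mice, while N and Y overlapped. Against N the log2 fold change in EY was -0.71 (SE 0.173, limma adjusted p = 0.0028), inside the fold limit, and it was called after median-of-ratios scaling (-1.09, adjusted p = 6.61e-05, where the alternatives ran from 6.61e-05 to 0.0133). Il36g fell by 1.01 in EY against Y (adjusted p = 0.00514), a change at the fold limit. It was not a call without Y mouse 1, 2 or 3 (adjusted p from 0.017 to 0.0297) or EY mouse 1, 2 or 4 (-0.95 to -0.96), with a pseudocount of 1 TPM (-0.996) or in a fit of these groups alone (adjusted p = 0.0104).

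Il36rn encodes the IL-36 receptor antagonist. N mice had 127, 228, 173, 210 and 183 TPM, E mice 163, 217, 263, 175 and 246, Y mice 103, 101 and 116, and EY mice 14.2, 28.0 and 54.3 at the lowest, median and highest. The groups N, Y and EY did not overlap at all, in that order of level, and E overlapped N. In Y against N the log2 fold change was -0.765 with an adjusted p of 0.163 (0.033 to 0.329 over the alternatives), which is not a call. Il36rn fell by 2.72 in EY against N (SE 0.294, limma adjusted p = 9.53e-07) and by 1.95 in EY against Y (adjusted p = 0.00208). The EY against Y calls of Il36rn and of Il18 were lost when any 1 of the 3 Y mice was left out, with adjusted p from 0.0106 to 0.0136, and in a fit of these groups alone (adjusted p = 0.0304 for Il36rn and 0.0195 for Il18). Its interaction value was -2.16 (SE 0.460, adjusted p = 0.0355), which was called by voom on the recovered reads (adjusted p = 0.00183) and without EY mouse 3 (-2.36, adjusted p = 0.00801), within a range of 0.00183 to 0.0941 over the alternatives.

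The ratio of Il36rn to the sum of Il36a, Il36b and Il36g was 0.675, 0.758, 0.663, 0.853 and 0.734 in N, 0.442, 0.387 and 0.535 in Y, and 0.157, 0.242 and 0.447 in EY at the lowest, median and highest. All Y and EY ratios were below all N ratios. In E it was 0.879 ± 0.0835 (SD, n = 5). These ratios of TPM, and those given below, are a description with no test, and their size depends on the gene lengths used.

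Il1f10 encodes IL-38, a family member described as an antagonist. N mice had 6.95, 27.0, 15.6, 12.2 and 9.72 TPM, E mice 13.6, 3.21, 14.3, 7.13 and 9.08, Y mice 3.02, 1.21 and 3.98, and EY mice 0 at the lowest, 0.451 at the median and 1.51 at the highest. In EY 3 of the 6 mice were at 0, with 14 reads over the whole group against 328 in N. Il1f10 fell in EY by 5.21 (SE 0.762, limma adjusted p = 2.64e-05), with a pseudocount of 0.1 TPM. With 1 TPM the value was -3.25 and with 0.01 TPM it was -6.91, both of them calls. In Y the log2 fold change was -2.34 (adjusted p = 0.0958), a call only with a pseudocount of 1 TPM (-1.98, adjusted p = 0.00774), and all Y mice were below all N mice. In EY against Y it was -2.87 (adjusted p = 0.0539).

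Il1a encodes IL-1α. It had 12.4, 19.3, 20.1, 21.6 and 21.7 TPM in N mice, 8.78, 12.9, 17.5, 10.001 and 9.80 in E mice, 24.0, 27.5 and 19.4 in Y mice, and 10.8, 12.7 and 24.5 at the lowest, median and highest in EY. N mouse 1 was the lowest of its group, EY mouse 5 was apart from the rest of EY, and no group was apart from N. Il1a was called in no comparison (EY against N -0.40, limma adjusted p = 0.159, and E against N -0.70, adjusted p = 0.119). Its gene is overlapped on the opposite strand by Gm14023, Il1b by Il1bos, and Il18 by Bco2 and Tex12. The sources used here do not say whether reads were counted by strand, so reads of such partners cannot be told apart.

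Il1b encodes IL-1β. N mice had 14.5, 2.23, 3.51, 3.07 and 3.97 TPM, E mice 9.59, 8.38, 6.32, 1.42 and 18.0, Y mice 7.46, 6.77 and 20.0, and EY mice 4.14, 19.3 and 50.4 at the lowest, median and highest. N mouse 1 stood above the other N mice, and every group overlapped N. The log2 fold change in EY was 1.95 (SE 0.666, limma adjusted p = 0.0253), not a call. Without N mouse 1 it was 2.39 (adjusted p = 0.00805) and without EY mouse 6 it was 2.35 (adjusted p = 0.0064), both of which pass, and the adjusted p ran from 0.0064 to 0.114 over the alternatives.

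The neutrophil markers stood beside Il1b in several mice. Of 12 markers 11 passed the filter, and 4 were called higher in EY against N (Cd177, Ly6g, Mmp8 and Stfa2l1, with all genes at 12.6%) and 0 in Y or E against N by limma. Cd177 was a call in 16 of 27 other fits, and 7 markers were called without EY mouse 6. Their summed TPM was 14.1, 19.03, 9.76, 1.92 and 4.01 in N mice, 8.34, 3.64, 3.73, 0.478 and 10.5 in E mice, 18.3, 4.97 and 31.6 in Y mice, and 84.3, 74.0, 46.3, 141, 22.1 and 3.07 in EY mice 1 to 6. The order of the EY mice by these markers began with mice 4, 1 and 2, which were also the 3 highest for Il1b, and mouse 6 was lowest for both. EY mouse 3 had a higher marker sum than mouse 5 but less Il1b (10.4 against 15.8 TPM), and N mouse 2 had the highest sum and the lowest Il1b of N. Of the 19.03 TPM in N mouse 2, 15.4 were Ltf alone, and 7 of the 12 markers were at 0 in that mouse. Retnlg was the most abundant marker in EY, at 39.8 TPM on average with a median of 38.1 and 1 mouse at 0. In N it averaged 0.425 TPM, with a median of 0.262, a highest value of 1.52 and 2 mice at 0. The defining marker Ly6g was at 0 in all N, E and Y mice and in EY mouse 6. It passed the filter through EY alone, with 35 reads over that group, so it could only be called higher there. With a pseudocount of 1 TPM Ly6g was not a call (0.87). The part of neutrophil RNA in the Il1b values was not tested.

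Il1rn encodes the IL-1 receptor antagonist. N mice had 33.2, 29.4, 29.8, 27.2 and 31.5 TPM, E mice 24.3, 29.8, 27.3, 36.5 and 31.3, Y mice 51.9, 84.2 and 73.0, and EY mice 40.0, 55.1 and 73.7 at the lowest, median and highest. All Y and EY mice were above all N and E mice. Il1rn rose in Y by a log2 fold change of 1.18 (SE 0.176, limma adjusted p = 0.000229), and in EY it was 0.85 (SE 0.146, adjusted p = 0.000136), inside the fold limit. Under median-of-ratios scaling the values were 0.98 in Y and 0.47 in EY, neither of them called. The ratio of Il1rn to Il1a plus Il1b averaged 1.24 ± 0.0921 for N (SD, n = 5), 1.64 ± 0.879 for E (n = 5), 1.99 ± 0.423 for Y (n = 3) and 1.72 ± 0.614 for EY (n = 6), and EY overlapped N.

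Il18 and Il33 encode cytokines that are stored in epithelial cells. Il18 had 15.9, 17.9, 26.8, 25.4 and 24.1 TPM in N mice, 14.4, 28.3, 24.3, 13.6 and 21.4 in E mice, 8.09, 8.65 and 8.94 in Y mice, and 1.62, 2.21 and 4.48 at the lowest, median and highest in EY. N, Y and EY did not overlap, and the Y mice lay close together. Il18 fell by 3.04 in EY against N (SE 0.258, limma adjusted p = 6.47e-08), by 1.32 in Y against N (adjusted p = 0.0073) and by 1.71 in EY against Y (adjusted p = 0.00208). The Y call was lost with only N mice 1 to 3 (adjusted p = 0.0483), and without any 1 of N mice 3, 4 or 5 or of the Y mice (adjusted p from 0.0171 to 0.0299), and over all alternatives it ran from 0.000492 to 0.0483.

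Il33 had 14.6, 12.1, 19.7, 13.7 and 16.8 TPM in N mice, 8.38, 33.4, 25.7, 8.98 and 23.9 in E mice, 64.3, 32.2 and 40.8 in Y mice, and 24.0, 35.0 and 38.4 at the lowest, median and highest in EY. All Y and EY mice were above all N mice, and E mice 1 and 4 were below them. Il33 rose in EY by 1.12 (SE 0.315, limma adjusted p = 0.00775), and its value in Y, 1.53 (SE 0.379, adjusted p = 0.0103), did not pass the limit. The EY call did not hold, among others, under median-of-ratios scaling (0.75, adjusted p = 0.0748), in voom (0.96, under the fold limit), with only N mice 1 to 3 (adjusted p = 0.0357) or without N mouse 1, 2, 4 or 5, EY mouse 1, 2, 3, 5 or 6 or Y mouse 3 (adjusted p from 0.0102 to 0.0216). Over all alternatives its adjusted p ran from 0.000134 to 0.0748. The Y value became a call with a pseudocount of 1 TPM (adjusted p = 0.00928), a filter at 1 TPM (0.00835), these groups alone (0.00824), voom (0.00315), or without E mouse 1, 2 or 4 (0.00437 to 0.00596). EY against Y gave no call (-0.40, adjusted p = 0.545).

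Against E, which had E6-E7 without active YAP1, 5 members fell in EY. The log2 fold change of Il36a was -1.67 (limma adjusted p = 0.00249), of Il36b -2.32 (2.95e-05), of Il36rn -2.93 (8.33e-07), of Il1f10 -4.60 (0.000131) and of Il18 -2.90 (2.4e-07). All EY mice were below all E mice for each of these but Il36a, whose call was lost in a fit of these groups alone (adjusted p = 0.0148). Il33 was at 0.93 (adjusted p = 0.0277), a call only without E mouse 2 (1.17, adjusted p = 0.00618), and Il1rn was at 0.88 (adjusted p = 0.000134), under the fold limit with every EY mouse above every E mouse.

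**Figure D3:**
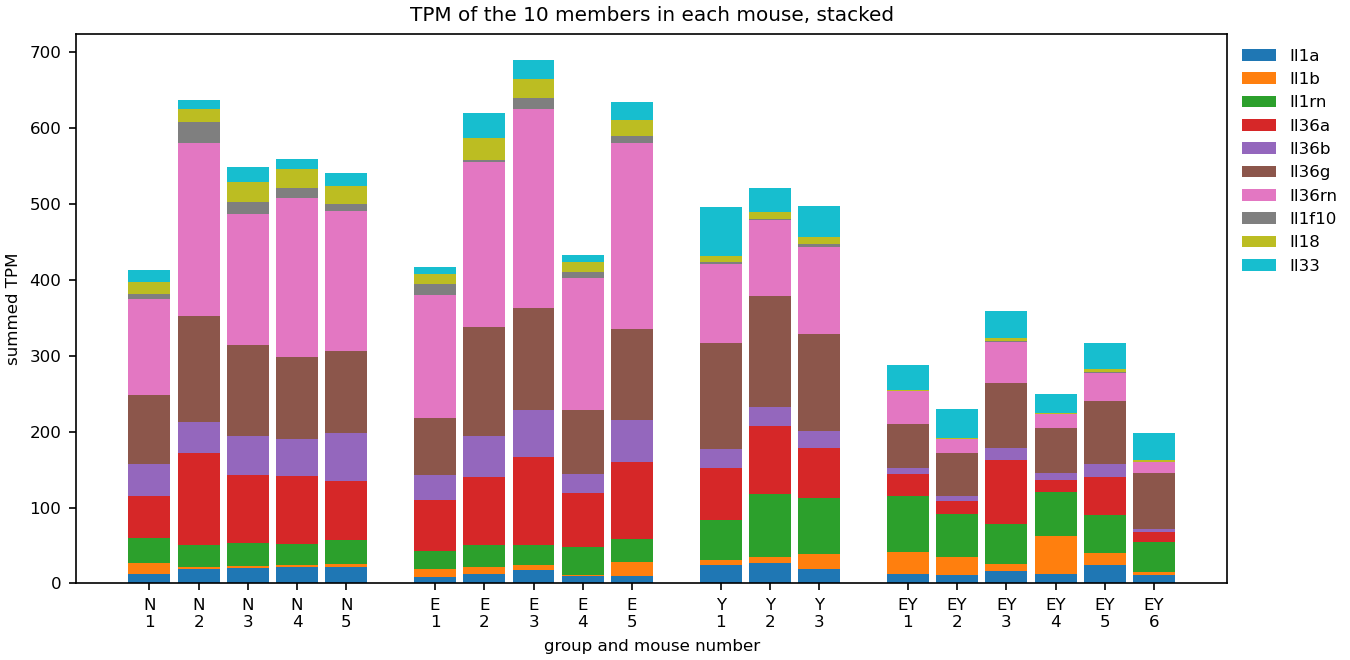
Stacked TPM of the 10 members in each of the 19 mice (vertical axis), by group and mouse number. The sum lies between 412 and 638 TPM in N mice and between 199 and 359 in EY mice, with Il36rn the largest slice in N and Il36g or Il1rn in EY.

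The makeup of the family in TPM differed between groups. The summed TPM of the 10 members was 540 ± 81.1 in N (SD, n = 5), 559 ± 125 in E (n = 5), 505 ± 14.2 in Y (n = 3) and 274 ± 59.2 in EY (n = 6). Il36rn took 33.9% ± 2.86 of it in N and 10.7% ± 3.70 in EY, while Il1rn went from 5.76% ± 1.37 to 20.7% ± 4.66 and Il33 from 2.92% ± 0.731 to 12.8% ± 3.76. In Y the shares of these 3 genes were 21.1% ± 1.97, 13.8% ± 2.95 and 9.12% ± 3.49. By reads Il33 was the largest member in EY, with 11404 over the group against 7672 for Il1rn, so the size of a share depends on the gene lengths used. Shares are a description with no test.

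**Figure D4:**
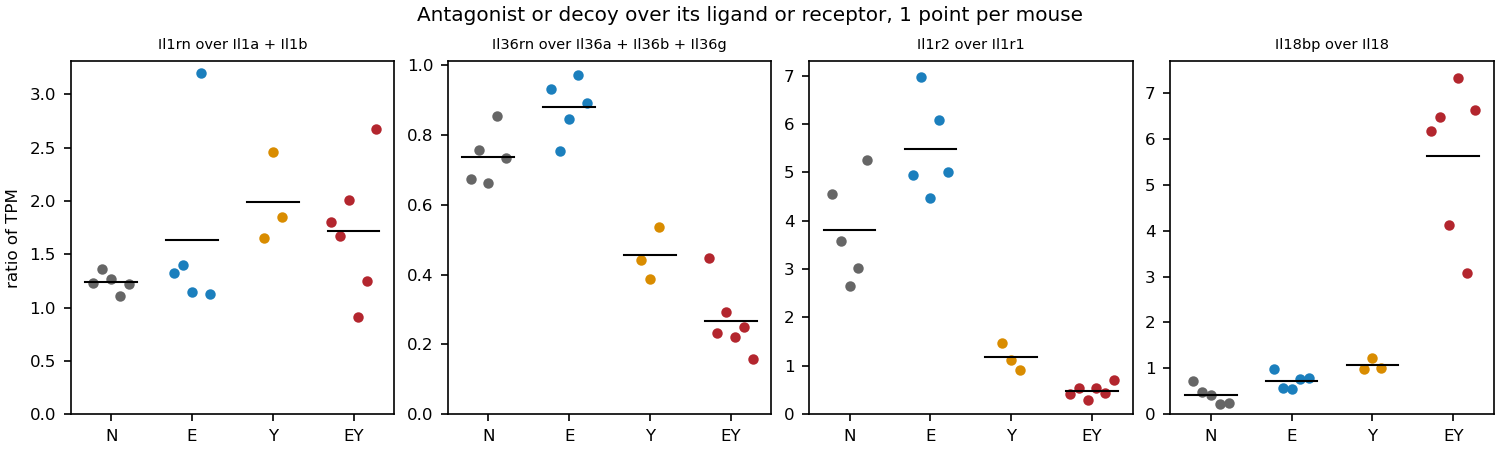
Ratio of TPM in each mouse (vertical axes, from 0) for 4 pairs of antagonist or decoy and agonist or receptor, with a line at the group mean. The Il36rn and Il1r2 ratios lie lower in all Y and EY mice than in all N mice, and the Il18bp ratio lies between 3.07 and 7.34 in EY against 0.214 to 0.725 in N.

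Of the 9 receptors and decoys in the table, 1 was called higher in EY and in Y (all genes, 12.6% and 3.47%), and none lower. This was Il1r1, the signalling receptor of IL-1α and IL-1β, which had 0.865, 1.00, 1.25, 0.961 and 0.812 TPM in N mice, 1.81, 4.27 and 4.43 in Y mice, and 3.98, 5.05 and 5.78 at the lowest, median and highest in EY. All Y and EY mice were above all N mice. Il1r1 rose by 2.22 in EY (limma adjusted p = 3.76e-07) and by 1.65 in Y (adjusted p = 0.000425), and the EY change was also a call under median-of-ratios scaling (1.86). The Y call was lost in a fit of those groups alone (adjusted p = 0.0181). Il1rl2, the IL-36 receptor, averaged 13.4 TPM (N), 23.8 (Y) and 21.3 (EY), with log2 fold changes of 0.82 in Y and 0.67 in EY, under the fold limit.

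The other 7 receptors and decoys were called in neither comparison. Il1r2, a decoy for IL-1, was at a log2 fold change of -0.62 in EY (adjusted p = 0.0265), and the ratio of Il1r2 to Il1r1 was 3.81 ± 1.08 in N (SD, n = 5), 5.49 ± 1.01 in E (n = 5), 1.17 ± 0.282 in Y (n = 3) and 0.487 ± 0.140 in EY (n = 6). Il18bp, which binds free IL-18, had 0.73 (adjusted p = 0.00637), under the fold limit, and its ratio to Il18 averaged 0.418 ± 0.205 for N, 0.728 ± 0.183 for E, 1.07 ± 0.1298 for Y and 5.63 ± 1.66 for EY. Il18r1, Il18rap, Il1rap, Il1rl1 and Sigirr averaged at most 2.13 TPM in each group. The 9 had a median log2 fold change of 0.67 in EY and 0.19 in Y, against 0.33 and 0.13 over all genes. Against E, Il18r1 and Il1r1 were called higher in EY (all genes, 7.82%), and against Y none of the 9 was called by limma.

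Of 17 adaptors and kinases that carry the signal, Irak3, an inhibitory kinase, was called higher in EY, and the ubiquitin ligases Peli1 and Peli3 lower (all genes, 12.6% and 5.71%). By limma 0 were called in Y or E against N. Their median was 0.23 in EY and 0.09 in Y. Of the 20 genes of inflammasomes and processing that passed the filter, 3 rose in EY (Aim2, Capn2 and Gsdmd) and 4 fell (Casp1, Gsdma, Nlrp10 and Nlrp1b, with all genes at 12.6% and 5.71%). In Y 1 rose and 2 fell (all genes, 3.47% and 1.11%), with 0 called in E by limma. Under median-of-ratios scaling 1 was called higher and 5 lower in EY, where 1540 of all genes were called higher and 1972 lower. Gsdmd was a call in 18 of 28 other fits, Aim2 in 23 of 27 and Nlrp1b in 18 of 27. Casp1, which cuts pro-IL-1β and pro-IL-18, averaged 54.5 ± 9.35 TPM in N (SD, n = 5), 24.0 ± 8.08 in Y (n = 3) and 24.6 ± 9.20 in EY (n = 6), and fell by 1.23 in EY and 1.21 in Y (limma adjusted p = 0.000632 and 0.00989). The Y call of Casp1 held in 9 of 28 other fits, with adjusted p from 0.000838 to 0.057, and was lost without any 1 N mouse, any 1 E mouse, Y mouse 1 or 2 or EY mouse 2, 5 or 6. Capn2, a calpain, rose by 2.17 in EY and 1.69 in Y. Nlrp10 fell by 3.86 in EY and 1.77 in Y, and the pore protein Gsdma fell by 2.45 in EY. Nlrp1a did not pass the filter.

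**Figure D5:**
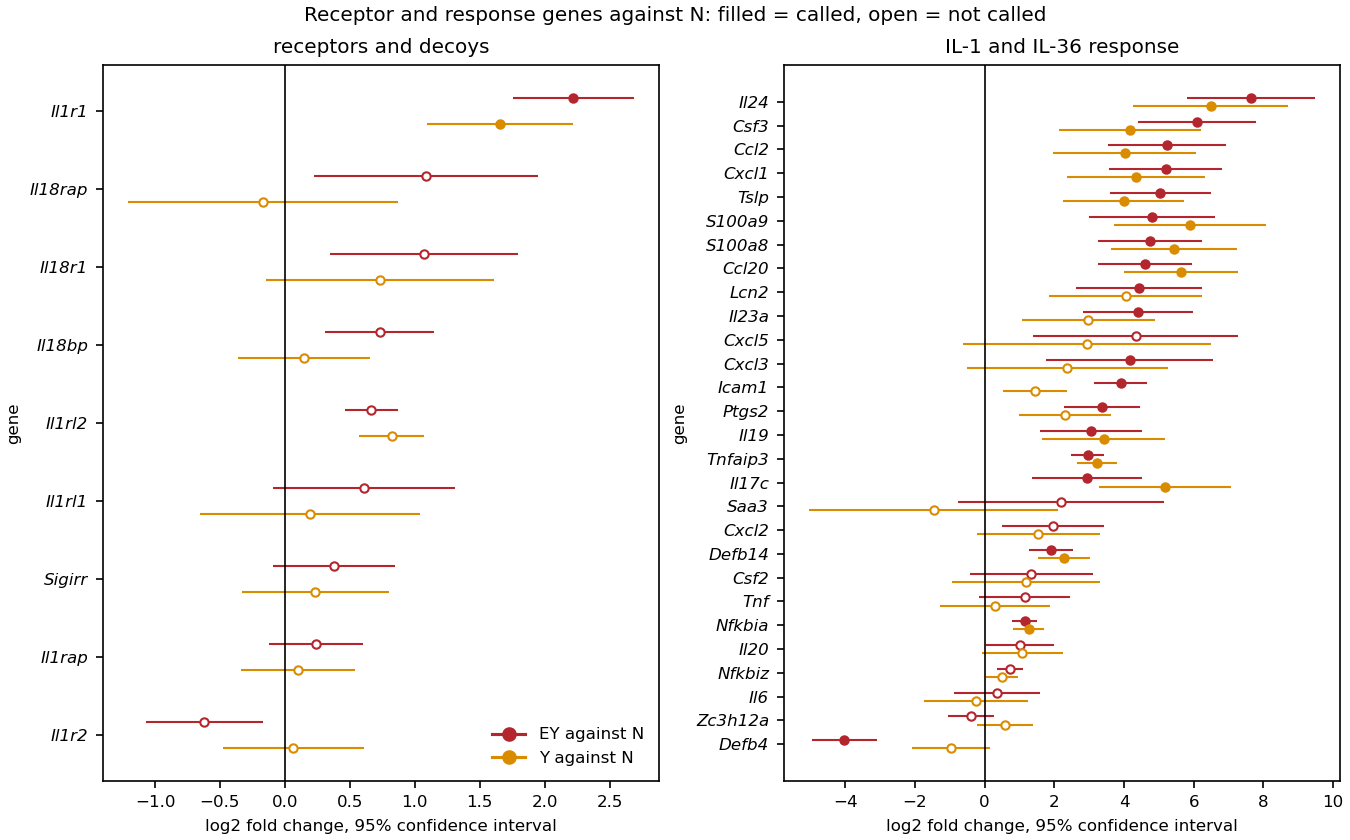
Log2 fold change with 95% confidence interval (horizontal axes) of the receptors and decoys and of the response genes, for EY and Y against N. Filled points are called: Il1r1 in the left panel, and 19 of 28 genes in EY in the right panel, of which only Defb4 is lower.

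Genes commonly induced by IL-1 or IL-36 in epithelia were a list of 28. In EY against N 18 rose and 1 fell (all genes, 12.6% and 5.71%), and in Y 13 rose and none fell (3.47% and 1.11%). In E 1 rose (Icam1), with 1.2% of all genes called in either direction. Its median log2 fold change was 3.20 for EY, 2.66 for Y and 0.27 for E, against 0.33, 0.13 and 0.07 over all genes. Il24, Csf3 and Il20 had no reads in N, and with them at the bound given by 3 reads over the N group, or left out at or under it, the medians were 3.20, 2.94 and 0.31. With only N mice 1 to 3, limma called 16 higher for EY, 8 for Y and 0 for E. In Y, 8 were called higher without Y mouse 2, 8 without Y mouse 3 and 9 without N mouse 5. The Y call of Il19 held in 6 of 28 other fits, of Ccl2 in 7 and of Csf3 in 17. Icam1 in E was a call in 19 of 28 other fits (adjusted p from 0.00192 to 0.0887), and it was not one without N mouse 3, 4 or 5 or E mouse 1, 2 or 4. Cxcl1, a neutrophil chemokine, had 6.99, 7.19, 2.73, 2.10 and 0.888 TPM in N mice, 37.3, 97.3 and 72.5 in Y mice, and 36.1, 141 and 310 at the lowest, median and highest in EY, and all Y and EY mice were above all N mice. It rose by 5.19 in EY and 4.34 in Y (limma adjusted p = 3.2e-05 and 0.004), and the Y call was lost in 7 of 28 other fits, among them those without N mouse 4 or 5 or Y mouse 2 or 3 (adjusted p up to 0.0337). Tnfaip3, an inhibitor of NF-κB signalling, rose by 2.95 in EY and 3.22 in Y. Il24 and Csf3 were at 0 in all 5 N mice and averaged 27.2 and 15.9 TPM in EY. The Csf3 mean rested largely on 1 mouse, with a median of 3.84 and a highest value of 54.8 TPM in EY. Defb4, a β-defensin, averaged 991 ± 323 TPM in N (SD, n = 5) and 72.6 ± 51.3 in EY (n = 6), and fell by 4.03. Many of these genes also respond to other signals, and neutrophils express some of them.

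Markers of other cell types were counted the same way, beside 12.6% of all genes called higher and 5.71% lower in EY against N, and 3.47% and 1.11% in Y against N. Of 8 T cell markers, 2 were called higher in EY (Cd3d and Trbc2), and Trbc2 was the most abundant. These 8 summed to 18.2, 5.61, 3.58, 1.66 and 11.3 TPM in N mice, 12.8, 23.0, 16.1, 3.54 and 16.1 in E mice, 12.5, 15.2 and 22.6 in Y mice, and 26.9, 33.1 and 54.0 at the lowest, median and highest in EY, so that every EY mouse was above every other mouse. The sum was mostly Trbc2, at 28.0 TPM on average in EY. Without Trbc2 the median sum was 8.31 TPM in EY, 5.05 in E, 3.47 in Y and 4.08 in N. Cd3d was a call in 24 of 28 other fits. None of 7 skeletal muscle markers and none of 12 monocyte and macrophage markers was called in EY, Y or E against N by limma, but 5 monocyte and macrophage markers were called higher in EY without N mouse 1 and 2 without E mouse 4. The muscle sum, mostly Acta1, was 6.88 to 221 TPM in N and 29.9 to 1163 in EY, highest in EY mouse 3. Of 8 suprabasal keratinocyte markers 5 fell in EY (Ivl, Krt13, Krt4, Krt76 and Lor) and 1 in Y (Krt76), and of 7 basal markers Krt14 rose and Krt15 fell in EY. Of 8 Langerhans and dendritic cell markers Ccr7 rose and Cd207 fell in EY, of 7 fibroblast markers Dcn fell in EY, of 5 mast cell markers Kit fell in Y, and no endothelial marker was called among the 4 that passed. The 7 fibroblast markers had a median log2 fold change of 0.45 in EY against N, so Dcn does not stand for that list. The call of Ccr7 held in 7 of 28 other fits, of Kit in 8 of 27 and of Krt76 in Y in 22 of 28. The part of these cell types in the members' values was not tested.

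Across the 19 mice, the gene whose level on the log2 scale followed Il36b most closely among all that passed was Il18 (Pearson r = 0.974), and for Il18 it was Nmu (r = 0.986), then Glrx (0.986). Il36rn was followed most closely by Marchf3 (0.977), Il36a by Pof1b (0.945), Il1f10 by Palm (0.959), Il33 by Sprr2j-ps (0.923), Il1rn by Slc1a1 (0.932), Il36g by Nucb2 (0.882), Il1b by Srgn (0.909) and Il1a by its overlapping neighbour Gm14023 (0.920). With the group means removed, the closest were Il36rn for Il36a and Il36a for Il36rn (0.920), Klk8 for Il18 (0.940), Kctd4 for Il36b (0.934), Spink5 for Il36g (0.887), Tmcc1 for Il33 (0.905), Cenpx for Il1rn (0.854) and Calcoco1 for Il1f10 (0.859). These values describe 19 mice that share group means or libraries, with no test.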

How the data were processed

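The authors aligned the reads with STAR 2.7.9 to GRCm39, used SAMtools 1.7 and HTSeq 0.13.5, and named DESeq2 1.34.0 in their processing notes. They deposited a table of TPM values per gene and mouse. Whole reads were recovered from the TPM steps for 24680 of 24680 symbols above 0, within 0.01 reads. They were used only for depth, limma voom, the bounds of genes at 0 and the reads given for single genes. The 22745 genes that reached 0.1 TPM in 3 or more mice were tested on log2(TPM + 0.1) with limma 3.58.1 (R 4.3.3, lmFit, contrasts.fit, eBayes with trend) with 1 mean per group. P-values were adjusted by Benjamini-Hochberg over all genes tested, and a call needed an adjusted p below 0.01 and a log2 fold change beyond 1. Fold changes on this scale understate low genes. The fit was tested on simulated data. Tables and figures used Python 3.11.15 with matplotlib 3.10.9, pandas 2.3.3 and numpy 2.4.6. All members were named, of the gene lists any gene called in a comparison, and per member the genes with the largest Pearson correlation. The members and lists were chosen with earlier results of these data known. Alternatives were other pseudocounts, filters, scaling, thresholds and N mice, a fit of the compared groups alone, mouse number as a block, voom, and leaving out each mouse. The p-values set differences between group means against the spread between mice within groups.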

Additional observations from a re-analysis of the deposited data

Results flagged for a closer look

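In 3 of 30 groups of 5 or 6 mice, 1 mouse stood apart from the others by its gap to the nearest mouse over the range of the group, where chance flags about 1 in 20 groups. Il1a was 12.4 TPM in N mouse 1, the lowest, with the next at 19.3 and the highest at 21.7. In the same mouse Il1b was 14.5 TPM, the highest, with the next at 3.97. Il1a was 24.5 TPM in EY mouse 5, the highest, with the next at 15.8 and the lowest at 10.8. N mouse 1 also had the highest summed level of monocyte and macrophage markers in N, 847 TPM, with Lyz2 at 557 TPM, and was also the highest of N for the sums of fibroblast, T cell, Langerhans and dendritic cell, endothelial, basal and suprabasal markers. The part of any of these in its values was not tested.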

How the results depend on the processing

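Of 1790 member values under the alternatives, 1697 kept their direction and their side of the limits, 41 no longer passed, 25 newly passed and 27 changed sign, none of them a called value. Members called in Y against N were 2, and were 4 with a pseudocount of 1 TPM, 1 with median-of-ratios scaling, 1 with only N mice 1 to 3, and 1 to 3 without each mouse in turn. In EY against Y they were 3, and were 0 in a fit of these groups alone and 0 to 4 without each mouse in turn. For the interaction they were 0, and were 1 with limma voom, 1 at an adjusted p below 0.05, and 0 to 1 without each mouse in turn. Fewer mice and other residuals are part of these alternatives, and the cause was not tested otherwise.

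The values that changed sign were small. In E against N, Il36a was -0.062 with scaling, and without each mouse in turn Il1rn ran from -0.10 to 0.042, Il36a from -0.10 to 0.18, Il36b from -0.29 to 0.036, Il36g from -0.17 to 0.070 and Il33 from -0.048 to 0.45. In the interaction Il1b was -0.017 with voom, Il1a ran from -0.18 to 0.13 and Il1b from -0.45 to 0.59 without each mouse in turn. The cause was not tested.

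With mouse number as a replicate block, 5 members were called in EY against N, 2 in Y against N, 0 in E against N, 3 in EY against Y, 5 in EY against E and 0 in the interaction, and Il1a in the interaction was 0.00043. Over 24 pairs of mice with the same number the correlation of deviations ran from -0.043 to 0.076, so the numbers do not pair mice. Depth limits Il1f10 in EY, with 14 reads over 6 mice. With 3 Y mice, leaving out 1 leaves 2 in that group.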
